A study of Mus musculus with 4 samples.

Results

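The brush border is the carpet of microvilli on the lumen side of intestinal enterocytes, and 9 genes that build or equip it were followed here. They were chosen by name. Sis, Mgam and Lct encode disaccharidases, and Anpep, Dpp4, Mep1a and Mep1b encode peptidases. Alpi encodes an intestinal alkaline phosphatase, and Vil1 encodes villin, the actin bundler of the microvillus core. All 9 were found among the 52459 genes of the count table, and all 9 passed the filter on low counts, as did 13692 genes in all. The data were 4 bulk RNA-seq libraries of intestinal stem cells (ISCs) sorted from small intestinal crypts of WT C57/Bl6 mice, which the study's methods give as female. Young ISCs came from mice of 2 months (ISC_2mth) and old ISCs from mice of 22 months (ISC_22mth). Each age had 2 libraries, and each library was made from the sorted cells of a pool of 5 animals, with no further treatment named. The sort, called SM6, kept EPCAM+ cells with high EPHB2 and CD44, CD166, medium CD24 and low GRP78, and discarded CD31+ and CD45+ cells. Crypts had been freed after the villi were scraped off.

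Brush border hydrolases are anchored in the microvillus membrane with their catalytic part facing the lumen, where they split the last sugar and peptide bonds before uptake. They are classical products of differentiated enterocytes: a stem cell at the crypt base carries few and short microvilli, and the enzymes accumulate as its daughters move up toward the villus. Transcription factors of the CDX, HNF4 and GATA families are known to drive many of these genes in the epithelium.

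The libraries held 11662654 to 15975698 counted reads, of which 62.6% and 65.7% were mitochondrial in the young pools and 73.8% and 72.9% in the old pools, so that 3852178 to 4593004 reads lay on other genes. Levels are given as CPM, the reads of a gene relative to the size of its library, after TMM scaling. TMM is a library size correction, computed here over the genes that passed the filter. At these depths a count of 3 corresponded to 0.199 to 0.246 CPM. Lgr5, the defining ISC marker, stood at 248 and 214 CPM in the young pools and at 209 and 206 CPM in the old pools. The old pool labelled replicate 1 stood apart in Paneth cell transcripts, with a summed level of 2072 CPM over 7 markers, against 943 and 725 CPM in the young pools and 809 CPM in the other old pool.

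The sequence around the start of 8 of the 9 genes was taken from RefSeq, and no window of Mep1b was searched. Each window ran from 250 bases before to 50 bases after the start and was searched on both strands for letters bound by the factors named above. The letters were TTTATNG for CDX, AGATAA for the GATA factors, CAAAGTCCA for HNF4 and TATAAA for the TATA box. Of all 32851 windows of this length, 10.9% held the CDX letters, 11.2% the GATA letters, 0.475% the HNF4 letters and 13.6% the TATA letters. Sis and Mgam are shown because their transcripts differed between the ages, Alpi because its window alone held the HNF4 letters, and Vil1 as the structural gene of the set, with every match in capitals on the gene's own strand (GRCm38.p6).
Sis, chr3:72967814-72968113, minus strand: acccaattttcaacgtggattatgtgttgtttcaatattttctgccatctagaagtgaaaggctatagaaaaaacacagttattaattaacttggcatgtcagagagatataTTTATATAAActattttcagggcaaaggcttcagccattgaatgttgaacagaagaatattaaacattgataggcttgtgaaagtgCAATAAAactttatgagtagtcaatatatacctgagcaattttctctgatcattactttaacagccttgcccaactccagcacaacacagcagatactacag
Mgam, chr6:40628581-40628880, plus strand: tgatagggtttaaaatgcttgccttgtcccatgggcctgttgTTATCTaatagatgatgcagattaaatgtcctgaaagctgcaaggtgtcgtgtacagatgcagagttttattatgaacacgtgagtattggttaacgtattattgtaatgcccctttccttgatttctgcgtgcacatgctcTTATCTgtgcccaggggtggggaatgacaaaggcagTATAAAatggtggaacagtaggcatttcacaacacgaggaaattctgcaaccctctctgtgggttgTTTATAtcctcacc
Alpi, chr1:87101557-87101856, minus strand: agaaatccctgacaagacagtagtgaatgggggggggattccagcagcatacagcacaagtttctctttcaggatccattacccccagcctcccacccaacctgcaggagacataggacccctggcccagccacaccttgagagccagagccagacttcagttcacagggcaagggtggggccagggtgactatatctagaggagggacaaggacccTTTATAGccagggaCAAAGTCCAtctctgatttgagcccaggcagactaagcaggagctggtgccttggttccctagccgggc
Vil1, chr1:74409134-74409433, plus strand: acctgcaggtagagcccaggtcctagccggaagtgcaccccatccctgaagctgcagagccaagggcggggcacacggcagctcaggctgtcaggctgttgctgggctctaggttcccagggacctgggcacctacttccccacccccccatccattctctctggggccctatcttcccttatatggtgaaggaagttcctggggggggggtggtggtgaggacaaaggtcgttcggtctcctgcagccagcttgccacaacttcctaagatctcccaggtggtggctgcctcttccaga

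Counted from the start, with its first base as position 1, the Sis window held the CDX letters on the opposite strand from position -52 and a pair of overlapping TATA matches from -138 and -134. The Mgam window held the GATA letters on the opposite strand from -208 and -66, and the TATA letters from -30 and, on the opposite strand, from 37. In Alpi the CDX letters began at -33, overlapping a TATA match on the opposite strand, and the HNF4 letters at -19. The Lct window held the GATA letters from -101 on the opposite strand and from -90. Dpp4 held the CDX letters on the opposite strand from -228, a TATA match overlapping them from -227, and the GATA letters from -32, and Mep1a the CDX letters from 14. No searched letters lay in the Anpep or Vil1 window, which draws nothing about the factors. The Anpep window, chr7:79848161-79848460 on the minus strand, lay inside the annotated gene, whose outer end is at 79861059. A start at that end was not searched. The windows ranged from 34.0% G and C in Sis to 72.3% in Anpep, against a median of 52.7% over all windows.

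To compare the 9 genes with one another, CPM was divided by the exonic length of each gene. In young ISCs, Mgam had the highest level per length at 55.2 CPM per kb, followed by Vil1 at 31.4, Anpep at 22.9 and Dpp4 at 10.0 CPM per kb. Sis at 4.50, Alpi at 3.96 and Mep1a at 3.77 CPM per kb overlapped among the 2 young pools, so their order was not resolved. Mep1b at 1.38 and Lct at 0.466 CPM per kb closed the order. In old ISCs the order of the means was Mgam at 73.3, Vil1 at 31.2, Anpep at 30.4, Dpp4 at 12.9, Sis at 11.7, Alpi at 7.08, Mep1a at 4.04, Mep1b at 3.93 and Lct at 0.591 CPM per kb. There the pools of Vil1 and Anpep, of Dpp4 and Sis, and of Mep1a and Mep1b overlapped.

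**Figure D1:**
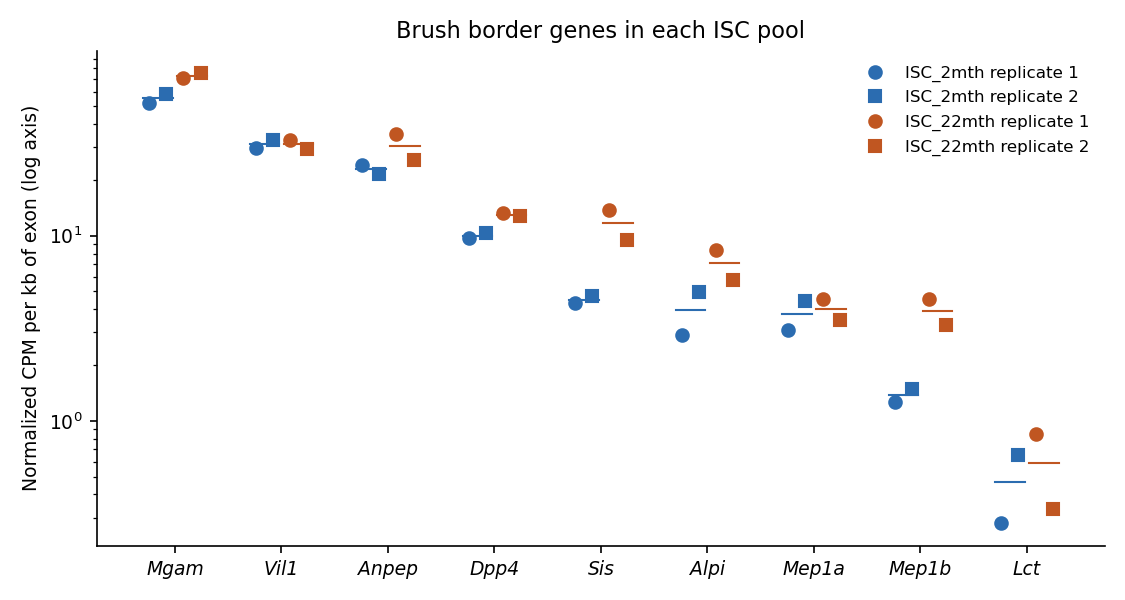
Level of each of the 9 brush border genes in each ISC pool, as TMM-scaled CPM per kb of exon on a log axis, with 1 point per pool and a bar at the mean of the 2 pools of an age. Mgam is highest and Lct lowest at both ages, and the old pools of Sis and Mep1b lie clear of the young pools.

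The first comparison asked which of the 9 transcripts differed between old and young ISCs. Sis, Mep1b and Mgam were higher in old ISCs, by 2.59-fold, 2.86-fold and 1.33-fold, and the other 6 did not pass the threshold (edgeR quasi-likelihood test over 13692 genes, Benjamini-Hochberg FDR under 0.05). Thus 3 of 9 were called, all of them higher, where 2.26% of all genes tested were called, 1.63% as higher and 0.628% as lower in old ISCs. None of the 9 was called lower, nor had one an unadjusted p under 0.05 in that direction or a lower call by the edgeR likelihood ratio test, limma voom or DESeq2. Of all genes tested, 9.26% had an unadjusted p under 0.05 as higher and 7.65% as lower in old ISCs, beside 6 and 0 of the 9. Without the old pool rich in Paneth transcripts, the log2 fold changes of Sis, Mep1b and Mgam were 1.08, 1.26 and 0.45. A fit without 1 pool leaves 1 pool in that age, so its spread came from the pools of the other age. In 6 of the 9 genes the lower old pool exceeded the higher young pool, a pattern that 24.0% of all genes tested showed, and in none did the old pools lie below without overlap, which 23.6% of all genes showed. The median log2 fold change of the 9 was 0.41, that of all genes tested was -0.0049. In bulk RNA, a larger share of cells carrying a transcript and more of it per cell cannot be told apart. P-values here measure the spread between pools, of which there were 2 per age, so that an exact permutation test on any single gene could not go below p = 0.333.

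Sucrase-isomaltase, encoded by Sis on chromosome 3 (GRCm38, 72888557 to 72967863, minus strand), splits sucrose and the branch bonds of starch fragments. Its counts were 466 and 529 in the young pools and 1364 and 868 in the old pools, or 32.2 and 35.1 CPM against 103 and 71.1 CPM. Both old pools lay well above both young pools, and the old pools also lay further apart than the young ones. The mean rose from 33.6 ± 2.05 to 87.2 ± 22.7 CPM (SD, n = 2 pools each), a log2 fold change of 1.38 (SE 0.16, 95% interval 1.05 to 1.70, edgeR FDR = 3.37e-05). The rise was called under all 13 alternative analyses, with FDR from 1.36e-19 to 0.000254, and its log2 size was 1.08 without the old pool rich in Paneth transcripts.

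Maltase-glucoamylase, encoded by Mgam (chromosome 6, 40628831 to 40769123, plus strand), releases glucose from the ends of starch fragments. It was by far the most abundant of the 9 transcripts, with 6601 and 7618 counts in young and 8190 and 8018 in old pools. In levels these were 455 and 505 CPM in the young and 619.8 and 657 CPM in the old pools, with no overlap. The means were 480.1 ± 34.9 and 638 ± 26.1 CPM (SD, n = 2 pools each), a log2 fold change of 0.41 (SE 0.11, 95% interval 0.19 to 0.63, edgeR FDR = 0.0471). Scaling to total counts, which moved the median of all genes to a log2 fold change of -0.50, turned the direction to -0.08, or 0.42 relative to that median. The call stood at the edge of the threshold: 7 of 13 alternatives called it, with FDR from 0.00893 to 0.636, and it was lost without young replicate 1 (log2 fold change 0.34, edgeR FDR = 0.436) and without young replicate 2 (0.48, edgeR FDR = 0.0874).

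Lactase, encoded by Lct (chromosome 1, 128284756 to 128328318, minus strand), splits milk sugar and is strongest in sucklings. Only 26 and 63 counts were found in young and 72 and 26 in old pools, or 1.79 and 4.17 CPM against 5.45 and 2.13 CPM. The ages overlapped, and within each age one pool exceeded the other by 2.33-fold and 2.56-fold. The log2 fold change was 0.35 (SE 0.44, 95% interval -0.57 to 1.26, edgeR FDR = 0.741), an interval that leaves room for a change in either direction.

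Mep1b was the one peptidase gene called. It encodes the beta subunit of meprin, a metalloprotease of the brush border, and lies on chromosome 18 (21061923 to 21100199, plus strand). Its counts were 48 and 59 in young and 158 and 106 in old pools, or 3.31 and 3.91 CPM against 12.0 and 8.68 CPM, with no overlap. The mean went from 3.61 ± 0.423 to 10.3 ± 2.32 CPM (SD, n = 2 pools each), a log2 fold change of 1.51 (SE 0.26, 95% interval 0.97 to 2.06, edgeR FDR = 0.00399). All 13 alternatives called it, with FDR from 1.19e-05 to 0.0155, and the log2 fold change was 1.26 without old replicate 1.

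Mep1a, on chromosome 17 (43474324 to 43502812, minus strand), encodes the alpha subunit that pairs with the Mep1b product. Counts of 154 and 232 in young and 208 and 148 in old pools gave 10.6 and 15.4 CPM against 15.7 and 12.1 CPM. The ages overlapped, and the log2 fold change was 0.10 (SE 0.21, 95% interval -0.34 to 0.54, edgeR FDR = 0.856).

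Aminopeptidase N, encoded by Anpep (chromosome 7, 79821803 to 79861059, minus strand), removes single residues from the amino end of peptides. Levels were 99.8 and 89.3 CPM in young and 146 and 105 CPM in old pools, from 1286 to 1934 counts. The ages did not overlap, but the lower old pool exceeded the higher young pool only by a small margin. The log2 fold change of 0.41 (SE 0.14, 95% interval 0.12 to 0.71) missed the threshold (edgeR FDR = 0.141), as it did in all 13 alternatives (FDR from 0.0525 to 0.662). It was 0.16 without old replicate 1 (edgeR FDR = 0.605) and 0.63 without old replicate 2 (edgeR FDR = 0.000195).

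Dipeptidyl peptidase 4, encoded by Dpp4 (chromosome 2, 62330073 to 62412231, minus strand), removes dipeptides and also inactivates gut hormones. Its levels were 61.1 and 65.7 CPM in young and 83.2 and 80.0 CPM in old pools, from 886 to 1099 counts. The pools of each age lay close together and the ages did not overlap. The log2 fold change was 0.36 (SE 0.12, 95% interval 0.11 to 0.62), which missed the threshold (edgeR FDR = 0.132) and did so in all 13 alternatives (FDR from 0.105 to 0.495). Exons of Dpp4 overlap Gm13561 on the opposite strand over 232 bases, and reads of the pair cannot be told apart if strand was not used in counting.

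An intestinal alkaline phosphatase, encoded by Alpi (chromosome 1, 87098002 to 87101606, minus strand), removes phosphate groups from bacterial lipopolysaccharide and other substrates. Counts were 99 and 176 in young and 259 and 165 in old pools, or 6.83 and 11.7 CPM against 19.6 and 13.5 CPM. The ages did not overlap, although the higher young pool came close to the lower old pool. The log2 fold change was 0.84 (SE 0.24, 95% interval 0.34 to 1.34, edgeR FDR = 0.0768), short of the threshold. It was called in 3 of 13 alternatives (FDR from 0.00381 to 0.222). The log2 fold change was 0.51 without young replicate 1 and 1.27 without young replicate 2. It was 0.54 without old replicate 1 and 1.08 without old replicate 2. Of 2288 stretches of 50 bases in its exons, 55 also occur in the related phosphatase genes Akp3, Akp-ps1 or Alppl2.

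Villin, encoded by Vil1 (chromosome 1, 74409376 to 74435559, plus strand), is the only one of the 9 that carries no enzyme activity. Its levels were 106 and 117 CPM in young and 117 and 105 CPM in old pools, from 1278 to 1766 counts. The pools of the 2 ages covered the same range. The log2 fold change was -0.01 (SE 0.12, 95% interval -0.27 to 0.24, edgeR FDR = 0.97), so that a change beyond 0.27 on the log2 scale lay outside the interval in either direction. Scaling to total counts called it lower at -0.50 (edgeR FDR = 0.00759), which was -0.01 relative to the median of all genes under that scaling.

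**Figure D2:**
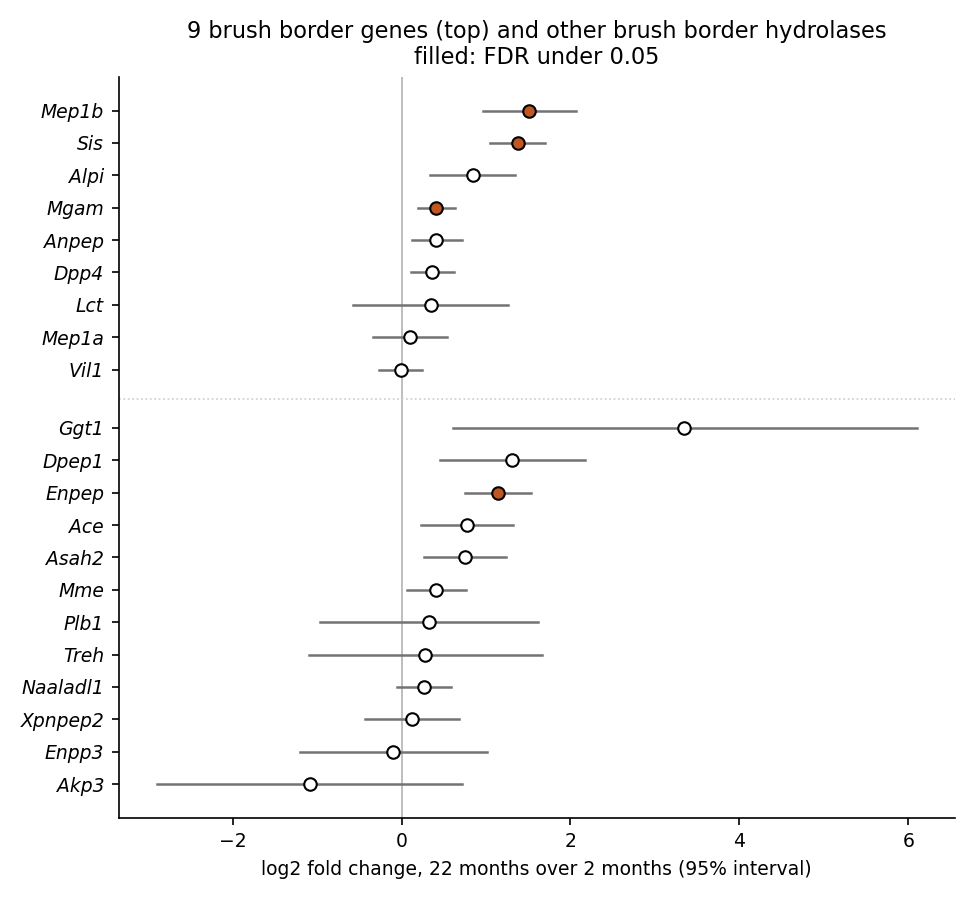
log2 fold change of old over young ISCs with its 95% interval for the 9 brush border genes and for other brush border hydrolases, filled where the edgeR FDR was under 0.05. Sis, Mep1b, Mgam and Enpep are filled, and the interval of Ggt1 is the widest because the gene had 1 count in each young pool.

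Ratios of counts within a pool do not depend on how libraries were scaled, and they were used to compare the members' changes with one another, as a description with no test. For each Mgam count there were 0.0706 and 0.0694 Sis counts in the young pools and 0.167 and 0.108 in the old pools, so that the 2 glucosidases differed in their change by 1.96-fold. For each Mep1a count there were 0.312 and 0.254 Mep1b counts in young and 0.760 and 0.716 in old pools, a change of 2.61-fold in the make-up of the meprin transcripts. Both ratios were higher in each old pool than in each young pool.

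Set against Vil1, the Sis ratio had a mean of 0.301 in young pools and was 0.885 and 0.679 in the old pools, the Mgam ratio 4.28 and 4.31 against 5.31 and 6.27. The ratios of Mep1b, Alpi, Anpep and Dpp4 to Vil1 were likewise higher in both old pools, by 2.87-fold, 1.81-fold, 1.33-fold and 1.30-fold in their means, whereas those of Lct and Mep1a overlapped between the ages. Thus the ratio to Vil1 was higher in old ISCs without overlap for 6 of the 8 enzyme transcripts, and for 22.8% of all other genes tested. Sis counts per Lgr5 count were 0.129 and 0.163 in young and 0.495 and 0.345 in old pools.

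**Figure D3:**
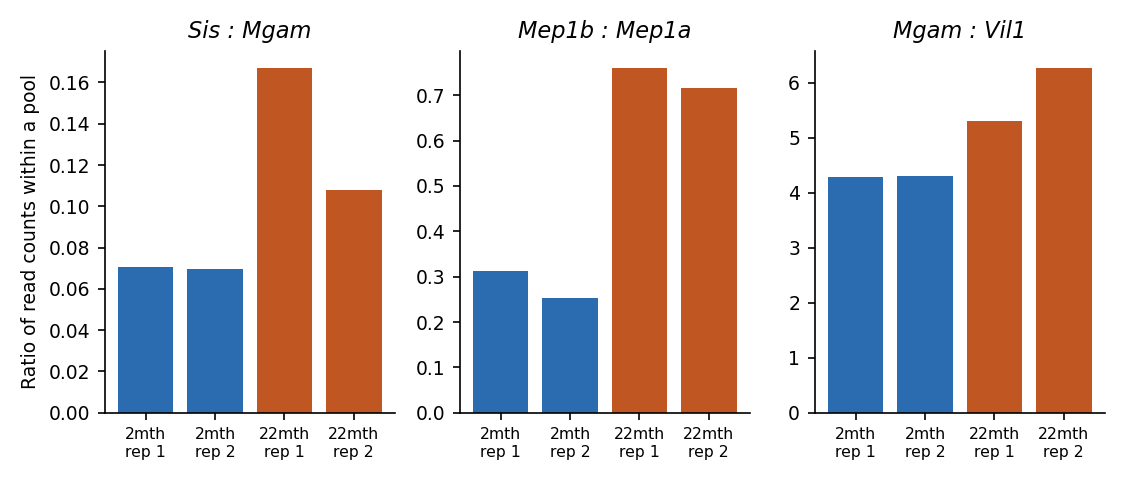
Counts of one brush border gene divided by those of another within the same pool, with 1 bar per pool on axes that start at 0. Sis relative to Mgam, Mep1b relative to Mep1a and Mgam relative to Vil1 are higher in both old pools than in both young pools.

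Summed over the 9 genes, the level was 777 and 847 CPM in young and 1122 and 1054 CPM in old pools. Mgam alone made up 58.6% and 59.6% of the summed counts in young and 55.2% and 62.3% in old pools. Sis made up 4.14% in each young pool and 9.20% and 6.74% in the old pools. Among 6121 genes with a mean of at least 10 CPM, the non-members whose centred log2(CPM + 1) profile over the 4 pools lay nearest to this sum were Eif5 at a distance of 0.028, Ptpn2 at 0.0301, Rps21 at 0.0302, Cdc5l at 0.0329 and 1700021F05Rik at 0.0437. Eif5, which encodes a translation initiation factor, stood at 135 and 144 CPM in young and 191 and 179 CPM in old pools. With 4 pools many profiles are close to one another, and the likeness is a description only.

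Of 15 other brush border hydrolases, 13 could be tested. In old ISCs 2 were higher, among them Enpep, none was lower, and the other 11 did not pass (7 were higher and none lower at an unadjusted p under 0.05, and no other tool called one lower). Their median log2 fold change was 0.41, the same as that of the 9 genes. For this list and those below, 1.63% of all genes tested were called higher and 0.628% lower. At an unadjusted p under 0.05 these shares were 9.26% and 7.65%. Enpep encodes aminopeptidase A, which trims acidic residues from peptides, and had 10.1 and 11.2 CPM in young and 27.0 and 20.0 CPM in old pools (log2 fold change 1.14, SE 0.19, edgeR FDR = 0.00305). The old pools of Enpep lay above the young ones without overlap, and all 13 alternatives called it. Tmprss15, which encodes enteropeptidase of the duodenum, had a count of 0 in every pool, which allows up to 0.199 to 0.246 CPM, a limit for counting error only.

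Of 21 structural genes of the microvillus, the group Vil1 belongs to, 18 were tested, 1 was higher and none was lower in old ISCs (5 and 1 at an unadjusted p under 0.05, with no lower call by the other tools), with a median log2 fold change of 0.15. The one called, Pls1, encodes plastin 1, which bundles actin beside villin, and its mean went from 74.4 ± 5.67 to 109 ± 6.32 CPM (SD, n = 2 pools each, log2 fold change 0.55, SE 0.12, edgeR FDR = 0.0226). It was called in 11 of 13 alternatives and lost without young replicate 1 (edgeR FDR = 0.257).

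Of 16 transcription factors that act in enterocytes, 15 were tested and 1, Maf, was higher in old ISCs and none lower (1 and 4 at an unadjusted p under 0.05, with no lower call by the other tools), with a median log2 fold change of 0.00. Maf had 60 and 50 counts in young and 93 and 116 in old pools (log2 fold change 1.15, SE 0.27, edgeR FDR = 0.0298). It was called in 10 of 13 alternatives and lost on leaving out young replicate 1, young replicate 2 or old replicate 2 (edgeR FDR = 0.051, 0.142 and 0.0882), and DESeq2 did not call it. Of the listed factors of the families whose letters were searched in the promoters, none passed the test. The log2 fold change was -0.47 for Cdx1 (edgeR FDR = 0.136, unadjusted p = 0.00846), whose old pools at 18.1 and 22.0 CPM lay below the young pools at 28.1 and 27.2 CPM, and 0.00 for Cdx2 (edgeR FDR = 0.996). It was -0.14 for Hnf4a and 0.24 for Hnf4g (edgeR FDR = 0.559 and 0.452), and 0.19, -0.18 and 0.17 for Gata4, Gata5 and Gata6 (edgeR FDR = 0.51, 0.641 and 0.546). Cdx2 ranged from 47.6 to 83.4 CPM between the 2 old pools alone. Its log2 fold change was 0.35 without old replicate 1 and -0.46 without old replicate 2. That of Cdx1 was -0.33 and -0.61 in the same fits.

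Enterocyte markers other than brush border enzymes were also higher in part. Of 16 tested, 5 were higher and none was lower in old ISCs, with a median log2 fold change of 0.67 and a summed level of 784 and 902 CPM in young against 1405 and 1318 CPM in old pools. Fabp1, a fatty acid binding protein of absorptive cells, had 263 and 251 counts in young and 1543 and 730 in old pools (log2 fold change 2.35, SE 0.22, edgeR FDR = 2.37e-06). Fabp2, Apob and Rbp2, which serve lipid and retinol handling, had log2 fold changes of 0.93, 0.53 and 0.98 (edgeR FDR = 0.00399, 0.0132 and 0.0200). Fabp1 was called in 13, Fabp2 and Apob in 12 and Rbp2 in 10 of 13 alternatives. Without young replicate 1 and without young replicate 2 the calls of Apob (edgeR FDR = 0.0563 and 0.0875) and Rbp2 (edgeR FDR = 0.0584 and 0.0581) were lost. At an unadjusted p under 0.05, 10 of the 16 were higher and none was lower, and DESeq2 called 3 higher, the likelihood ratio test 6 and limma voom 7. Without young replicate 1 the edgeR calls went to 2 and without old replicate 2 to 8. The part of enterocytes within the sorted cells in the members' differences was not tested.

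Of 12 ISC markers tested, none passed by the edgeR quasi-likelihood test, with 3 higher and 5 lower at an unadjusted p under 0.05. The likelihood ratio test and limma voom each called 2 of them lower and DESeq2 called 1 lower. The median log2 fold change was -0.20 and the summed level 3323 and 3104 CPM in young against 3067 and 3356 CPM in old pools, which overlapped. Olfm4, the most abundant ISC marker, had 1302 and 1230.1 CPM in young and 1111 and 1289 CPM in old pools (log2 fold change -0.08, edgeR FDR = 0.756), and Slc12a2, a sodium, potassium and chloride cotransporter of crypt cells, had a log2 fold change of 0.25 (edgeR FDR = 0.193). The 3 lower markers nearest to the threshold were Axin2, Ephb2 and Rnf43, with log2 fold changes of -0.46, -0.52 and -0.41 (edgeR FDR = 0.0511, 0.0576 and 0.0876) and old pools below the young ones without overlap. They were called in 10, 8 and 2 of 13 alternatives.

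Markers of secretory cells of the crypt were read for the same pools. None of 7 goblet cell markers passed by the edgeR quasi-likelihood test, none had an unadjusted p under 0.05, and none was called by the likelihood ratio test, limma voom or DESeq2. Their summed level was 1945 and 2563 CPM in young and 2657 and 2069 CPM in old pools, with a log2 fold change of 0.11 for the mucin gene Muc2 (edgeR FDR = 0.743) and -0.02 for Fcgbp (edgeR FDR = 0.955). Of 7 Paneth cell markers, the defensin genes Defa17 and Defa24 were higher in old ISCs, with log2 fold changes of 1.11 and 0.87 (edgeR FDR = 0.0164 and 0.0456) and a median over the list of 0.83. Over the list 5 were higher and 1 lower at an unadjusted p under 0.05, and the likelihood ratio test called 3 higher, limma voom 2 and DESeq2 none. Defa24 had 266 and 199 CPM in young and 584 and 268 CPM in old pools, so that its lower old pool barely exceeded the higher young pool. Defa17 was called in 12 and Defa24 in 7 of 13 alternatives, and without old replicate 1 neither was (edgeR FDR = 0.117 and 0.403). Defensin genes form a family of near-identical copies, so counts of single members are uncertain. Markers of cells outside the epithelium were low. The summed level of 10 leukocyte markers was 10.8 and 13.5 CPM in young and 20.7 and 21.3 CPM in old pools, with 3 of them at 0 in every pool. Nearly all of it was 1 gene, Itgam, with 148 and 196 counts in young and 254 and 252 in old pools, of 157, 204, 274 and 260 counts over the list. Itgam was also the 1 that could be tested and was higher in old ISCs (log2 fold change 0.78, edgeR FDR = 0.0296). It was called in 10 of 13 alternatives, not by DESeq2, and was lost without young replicate 1 (edgeR FDR = 0.307). That of 9 endothelial and stromal markers was 1.15 to 2.21 CPM, with 5 of them at 0 in every pool, and the 1 tested, Pdgfrb, had 28 and 31 counts in young and 17 and 2 in old pools and did not pass, with no unadjusted p under 0.05 and no call by the other tools. The part of these cells in the members' differences was not tested.

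**Figure D4:**
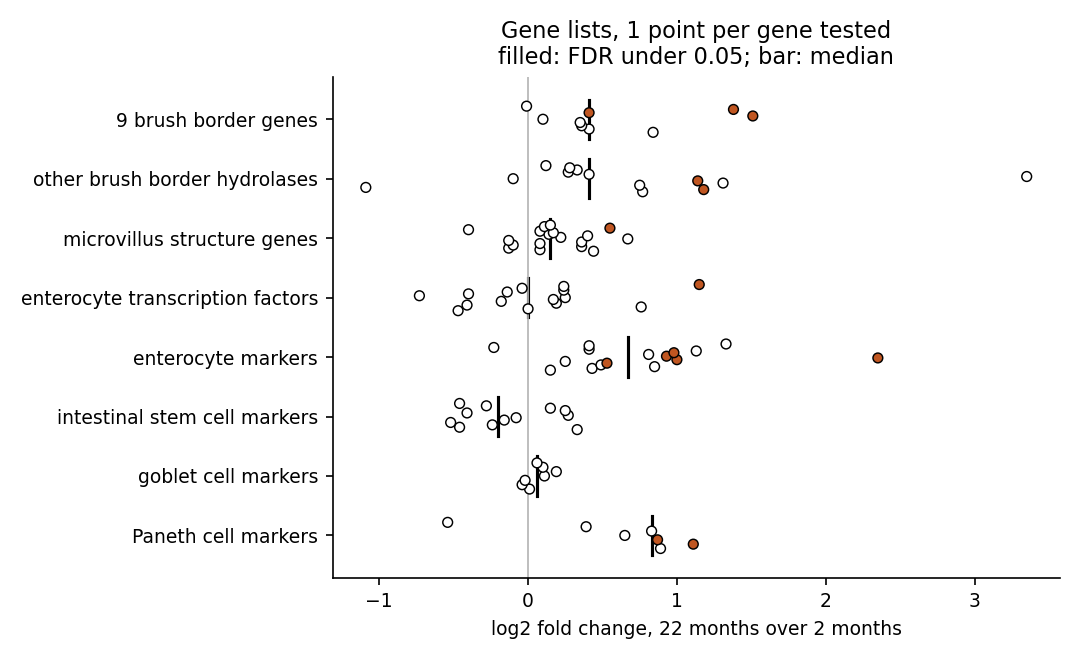
log2 fold change of old over young ISCs for each tested gene of 8 lists, 1 point per gene, filled where the edgeR FDR was under 0.05, with a bar at the median of the list. The medians of the 9 brush border genes and of the other hydrolases are both 0.41, that of the enterocyte markers is 0.67 and that of the ISC markers is -0.20.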

How the data were processed

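Per the labels and the study's methods, RNA of sorted ISCs was amplified by SPIA, a linear amplification of whole transcripts, and sequenced single-end, and the authors trimmed reads with Trimmomatic 0.30, aligned them to GRCm38 with STAR 2.4.2a and assigned them to genes with featureCounts. The deposited values are raw read counts per gene with GENCODE names, without molecular identifiers; the strand setting and the treatment of multi-mapping reads are not given in the sources used here. The large mitochondrial share leaves fewer reads for the brush border transcripts.

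A gene entered the test if any pool gave it over 5 reads together with a CPM above 1, which left 13692 of 52459. It used edgeR 4.0.16 in R 4.3.3 (TMM, quasi-likelihood F-test, age as the only term, FDR under 0.05 by Benjamini-Hochberg over all genes kept). The biological coefficient of variation was 0.139. The chi-square per gene between pools of one age was 10.3 (young) and 7.53 (old), above the 1 of pure counting noise. Gene positions and exonic lengths came from GENCODE vM21, a later release than that of the authors. The 9 genes, all gene lists and the rule for naming genes were chosen with earlier results of these data known. Named were all 9 genes, up to 4 genes of lowest p per direction from each list or, where none passed, the 2 of highest mean CPM, and the 5 non-members of nearest profile. Lgr5 (as the ISC label) and Axin2, Ephb2 and Rnf43 (as lower ISC markers) were named besides, after their values were seen. So were the CDX, HNF4 and GATA genes (as factors of the promoter letters), Ggt1 (in a caption) and Tmprss15. Lyz1 and Mptx2, Paneth cell markers that moved with the pool left out, were also named after their values were seen. Other analyses tried were voom of limma 3.58.1, plain or weighted by sample quality, DESeq2 1.42.0, the edgeR likelihood ratio test, other scalings and filters, a replicate block, GC and length offsets, and leaving out each pool. Some genes of the lists are counted but not reported here by name.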

Additional observations from a re-analysis of the deposited data

How the results depend on the processing

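Sis and Mep1b were higher in old ISCs with FDR under 0.05 in the 13 alternatives. Without each of the 4 pools, the log2 fold change was 1.08 to 1.62 for Sis and 1.26 to 1.72 for Mep1b. Those fits took their spread from the age with 2 pools, so their calls carry little weight, here and below. Over all genes, 309 calls became 611 with the edgeR likelihood ratio test, 197 with DESeq2, 554 without a filter, 137 with GC and length offsets and 147 to 691 on leaving out a pool, lowest without young replicate 1 and highest without old replicate 2 (647 without old replicate 1). With the replicate block there were 623. The numbers were not shown to pair the pools: the labels name no shared batch, and the correlation of same-numbered pools was -0.00015. Total-count scaling gave 4650 calls, 96 higher and 4554 lower. It also turned Mgam to -0.08, Lct to -0.13, Anpep to -0.09, Dpp4 to -0.13 and Mep1a to -0.38 on the log2 scale, which relative to the median of all genes were 0.42, 0.36, 0.41, 0.37 and 0.11. Vil1 was called lower there at -0.50 (edgeR FDR = 0.00759), -0.01 relative to that median, so that 2 members were called higher and 1 lower. GC and length offsets turned Vil1 to 0.03. Members called ran from 2 to 5 over the pools left out, highest without old replicate 2. Other hydrolases called went from 2 to 4 with the likelihood ratio test, without a filter and with the replicate block, and ran from 2 to 5 over pools left out, highest without old replicate 2. Microvillus genes called went from 1 to 7, all lower, with total counts and to 0 with GC and length offsets, and ran from 0 without young replicate 1 to 4 without old replicate 2. Over the pools left out, the log2 fold change of the Paneth cell marker Lyz1 ran from -0.4 without old replicate 1 to 1.48 without old replicate 2. That of the Paneth cell marker Mptx2 ran from -0.92 without young replicate 2 to -0.05 without young replicate 1. Fabp1 ran from 1.78 to 2.75, Muc2 from -0.16 to 0.33 and Axin2 from -0.57 to -0.35. Leaving out a pool moved the log2 fold change of Anpep from 0.16 to 0.63, of Lct from -0.49 to 1.08, of Mep1a from -0.14 to 0.39 and of Vil1 from -0.09 to 0.06. The cause of these shifts was not tested. Lct rested on 26 to 72 counts per pool and its 95% interval ran from -0.57 to 1.26.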

Other observations

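Markers of 3 further epithelial cell types were read in the same pools. Of 6 tuft cell markers 3 could be tested and 1 was higher in old ISCs: Dclk1, a kinase that marks tuft cells, had 4 and 4 counts in young and 42 and 19 in old pools (log2 fold change 3.09, edgeR FDR = 0.0258). The likelihood ratio test and DESeq2 also called it and limma voom, plain or weighted, did not. In all 10 of 12 alternatives called it, with FDR from 0.000345 to 0.103, and it was lost without young replicate 1 and without old replicate 1 (edgeR FDR = 0.0559 and 0.23). The summed tuft level stayed between 3.04 and 8.40 CPM, with 2 markers at 0 in every pool. Of 7 enteroendocrine cell markers 6 were tested and none passed by the edgeR quasi-likelihood test (2 had an unadjusted p under 0.05, 1 was called by the likelihood ratio test and none by limma voom or DESeq2). The granin gene Chgb ranged from 21.6 to 109.6 CPM between the 2 young pools and had 90.7 and 62.6 CPM in old pools. Its log2 fold change was 0.22 (edgeR FDR = 0.823), and it was -0.51 without young replicate 1 and 1.82 without young replicate 2. The summed level of the list was 27.9 and 127 CPM in young against 111 and 78.9 CPM in old pools. Of 4 markers of ileal enterocytes 3 were tested and none passed (2 had an unadjusted p under 0.05, none was called by the likelihood ratio test, limma voom or DESeq2). The bile acid binding protein gene Fabp6 had a log2 fold change of 0.75 (edgeR FDR = 0.183) and the bile acid exporter subunit gene Slc51a 0.78 (edgeR FDR = 0.202). Fabp6 was called in 2 of 13 alternatives. Its log2 fold change was 0.31 without old replicate 1 and 1.36 without young replicate 2.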
